A study of Mus musculus with 4 samples.

Results

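The circadian clock output genes described here are 10 mouse genes, the bZIP factors Dbp, Tef, Hlf and Nfil3, the period genes Per1, Per2 and Per3, the nuclear receptors Nr1d1 and Nr1d2, and the helix-loop-helix repressor Bhlhe40. They were taken by symbol, as every probe set whose platform annotation gives a single gene symbol among these 10, which gave 22 of the 45101 probe sets on each array. The 10 genes stand among 18193 genes with such a probe set. All 10 had at least 1 probe set past the filter on low values (18 of the 22 probe sets passed), so that all 10 are among the 13565 genes tested. The genes had been picked on the TGF-beta1 against low glucose difference measured on these same arrays. Their values in that comparison are therefore a description, without a test.

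The study profiled mesangial cells of the mouse in culture, the contractile cells between the capillaries of a kidney glomerulus, on single-channel short-oligo arrays. There were 4 arrays: 2 for cells that received TGF-beta1, a transforming growth factor behind much of the scarring in kidney disease, and 2 for cells kept in low glucose. The sources used here do not give the glucose level of the TGF-beta1 arrays, the dose, the duration, the hour of harvest, the time since the last medium change, or the origin and genotype of the cells. Effects of TGF-beta1, glucose and sampling time thus cannot be told apart. The labels do not say whether the 2 arrays of each group had different cultures as their source, so that every p-value here rests on array-to-array spread that is possibly technical.

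The molecular clock is a feedback loop in which CLOCK and ARNTL (BMAL1) bind E-box sequences and switch on the period and cryptochrome genes, whose proteins then block CLOCK and ARNTL. The same E-boxes drive Dbp, Tef and Hlf, activators of the PAR bZIP family, which carry the rhythm to D-box sequences in other genes. NFIL3 binds the same D-boxes and represses them, and the receptors NR1D1 and NR1D2 (REV-ERB alpha and beta) repress genes with ROR elements, Nfil3 among them. BHLHE40 (DEC1) competes for E-boxes and represses them, and is also known as a gene induced by TGF-beta. Several of these genes, Per1 first of all, also respond within a short time to hormones and growth factors in cultured cells.

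Values were deposited as linear intensities, with array medians of 80.3 and 99.6 on TGF-beta1 replicates 1 and 2 (T1 and T2) and 96.8 and 78.3 on low glucose replicates 1 and 2 (L1 and L2). Below, a level is either such a deposited intensity or a normalised log2 value, log2(intensity + 46.9) after quantile normalisation. A difference is TGF-beta1 minus low glucose in normalised log2 values, which understates the change of dim genes. The 4 arrays formed 2 pairs. T2 and L1 (array pair 1), and T1 and L2 (array pair 2), differed by 0.04 and 0.08 on average (absolute log2) in 18 spike-in probe sets, and arrays of different pairs by at least 0.86. For the 10 genes the differences within array pair 1 and array pair 2, in that order, stand as the error of a mean difference. For other genes the error after ± is the standard error of the blocked fit described next. Tests were made with limma, once without a block and once with array pair as a second term (the blocked fit). Markers of the labelled cell type were measured at modest signals: Pdgfrb had 87.2 and 118 in TGF-beta1 and 99.3 and 88.3 in low glucose, and Des 121 and 147 against 167 and 123. Of 8 mesangial markers, 5 passed the filter, with a summed intensity of 529 and 596 in TGF-beta1 and 471 to 547 in low glucose. Of 9 tubule and epithelial markers 7 passed, with sums of 7555 and 7600 against 7160 and 7906, and in the blocked limma fit 2 of the 7 rose (Krt8 and Krt18), 3 fell (Lrp2, Cdh16 and Aqp1) and 2 did not pass. Of 6 macrophage and leukocyte markers 5 passed, with sums of 1285 and 1623 against 1603 and 1976, most of it from Csf1r, while both Ptprc probe sets lay below the filter. Of 5 podocyte markers 3 passed, with sums of 504 and 722 against 518 and 687, and of 5 endothelial markers 1 passed (81.0 and 96.8 against 76.5 and 93.8). In the same fit 1 of the 5 mesangial markers rose and 1 of the 5 macrophage and leukocyte markers fell. Of the 3 podocyte markers 1 rose and 1 fell, and the endothelial marker was not called. Over all tested genes 18.5% were called. The part of these cell markers in the clock gene values was not tested, and fewer cells of a type and less RNA per cell cannot be told apart in such samples.

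Promoter sequence shows which of the clock's own binding letters lie near the start of these genes. RefSeq windows (build GRCm38.p6, 250 bases before to 50 after a start) were used for 8 of the 10 genes, 10 windows in all (not Per2 and Bhlhe40). A set of 5 motifs was searched on both strands: the E-box CACGTG, the D-box TTANGTAA, the ROR element TAGGTCA, the cAMP response element TGACGTCA and the SMAD palindrome GTCTAGAC. No 2 matches overlapped. The stretches with a match are shown 5′ to 3′ on the gene's strand, with the match in capitals, because they hold the letters that the factors of the clock loop, or for Hlf the cAMP-responsive factor CREB, are known to bind. In Nfil3 the capitals are the ROR element read on the opposite strand.
Nfil3 (chr13:52981015-52981081, minus strand): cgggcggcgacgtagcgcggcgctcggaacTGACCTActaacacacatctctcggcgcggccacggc
Tef, first start (chr15:81802516-81802581, plus strand): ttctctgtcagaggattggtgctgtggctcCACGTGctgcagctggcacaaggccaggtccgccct
Tef, second start (chr15:81811246-81811311, plus strand): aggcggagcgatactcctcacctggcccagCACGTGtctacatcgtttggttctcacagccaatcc
Per1 (chr11:69098753-69098818, plus strand): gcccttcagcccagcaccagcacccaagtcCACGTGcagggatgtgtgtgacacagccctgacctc
Per3 (chr4:151044786-151044900, minus strand): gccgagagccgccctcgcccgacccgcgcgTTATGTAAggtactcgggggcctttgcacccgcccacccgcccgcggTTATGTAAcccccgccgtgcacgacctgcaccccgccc
Hlf (chr11:90390889-90390956, minus strand): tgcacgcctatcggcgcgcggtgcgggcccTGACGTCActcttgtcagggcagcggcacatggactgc

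The ROR element of Nfil3 began 12 bases before its start, the E-boxes of Tef 127 and 138 bases before its 2 starts and that of Per1 166 bases before its first start. The window at the second Per1 start held none of the 5 motifs. Per3 held 2 D-boxes, 205 and 158 bases before its start, and Hlf a cAMP response element 9 bases before. An E-box was found in 7.15% of all 32851 windows of this length, a D-box in 2.32%, a ROR element in 2.61%, a cAMP response element in 1.79% and a SMAD palindrome in 0.213%. Dbp, Nr1d1 and Nr1d2 held none of the 5 motifs in these windows. A match of letters is a description, not a binding site, and a window without a match says nothing of the factor.

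The PAR bZIP activators Dbp and Tef were lower on the TGF-beta1 arrays, and Hlf was dim in both groups. Dbp had intensities of 131 and 87.3 on TGF-beta1 replicates 1 and 2, and of 185 and 274 on low glucose replicates 1 and 2. Both TGF-beta1 arrays lay below both low glucose arrays. The normalised log2 value averaged 7.26 ± 0.42 in TGF-beta1 and 8.07 ± 0.41 in low glucose (SD, n = 2 each). The difference was -0.81, with -0.82 in array pair 1 and -0.80 in array pair 2, a level 1.75-fold higher in low glucose. On the deposited scale the ratio of group means was 0.474, on values with no pseudocount and no quantile normalisation. The second Dbp probe set was dimmer, with 92.6 and 77.1 in TGF-beta1 and 105 and 135 in low glucose. Its difference was -0.35 (-0.30 and -0.39 within the pairs), and its normalised values overlapped between the groups. Ranked by difference, Dbp was 20th from the bottom of the 13565 genes. Its difference was -0.51 without L2 and -0.53 without T2.

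Tef, the thyrotroph embryonic factor, was brighter. Its intensities were 492 and 627 on the TGF-beta1 arrays and 938 and 665 on the low glucose arrays. The groups did not overlap, although T2 came close to L2. The normalised values averaged 9.23 ± 0.21 in TGF-beta1 and 9.71 ± 0.30 in low glucose (SD, n = 2 each). The difference was -0.48 (-0.55 and -0.42 within the pairs). The other Tef probe sets showed smaller differences in the same direction, -0.22 (-0.38 and -0.07) for a probe set with 152 and 162 in TGF-beta1 and 218 and 162 in low glucose, and -0.16 for 1 below the filter. With all 3 averaged, the difference of Tef was -0.29, and on the brightest probe set it was -0.27 without L1.

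Hlf, the hepatic leukaemia factor and the third PAR bZIP activator, had 62.1 and 87.0 in TGF-beta1 and 90.7 and 60.5 in low glucose. On both sides the arrays of array pair 1 were the higher ones. The difference was -0.03 (-0.06 and -0.00), and 0.07 on a second probe set below the filter. These signals lay at the 42.9th and 25.4th percentile of probe set brightness, below the median brightness.

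Nfil3, the repressor that occupies the same D-boxes, was higher on the TGF-beta1 arrays. It had 269 and 266 in TGF-beta1 and 136 and 129.7 in low glucose. The groups were far apart compared with the gap between the arrays of either group. The normalised values averaged 8.29 ± 0.05 in TGF-beta1 and 7.49 ± 0.11 in low glucose (SD, n = 2 each). The difference was 0.80 (0.84 and 0.76 within the pairs), a 1.74-fold higher level, and 2.01-fold by the ratio of deposited means. Nfil3 has 1 probe set with a single symbol. The difference lay between 0.74 and 0.86 when 1 array was left out. The repressor and 2 of the 3 activators that share the D-box thus differed in opposite directions on the same arrays.

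**Figure D1:**
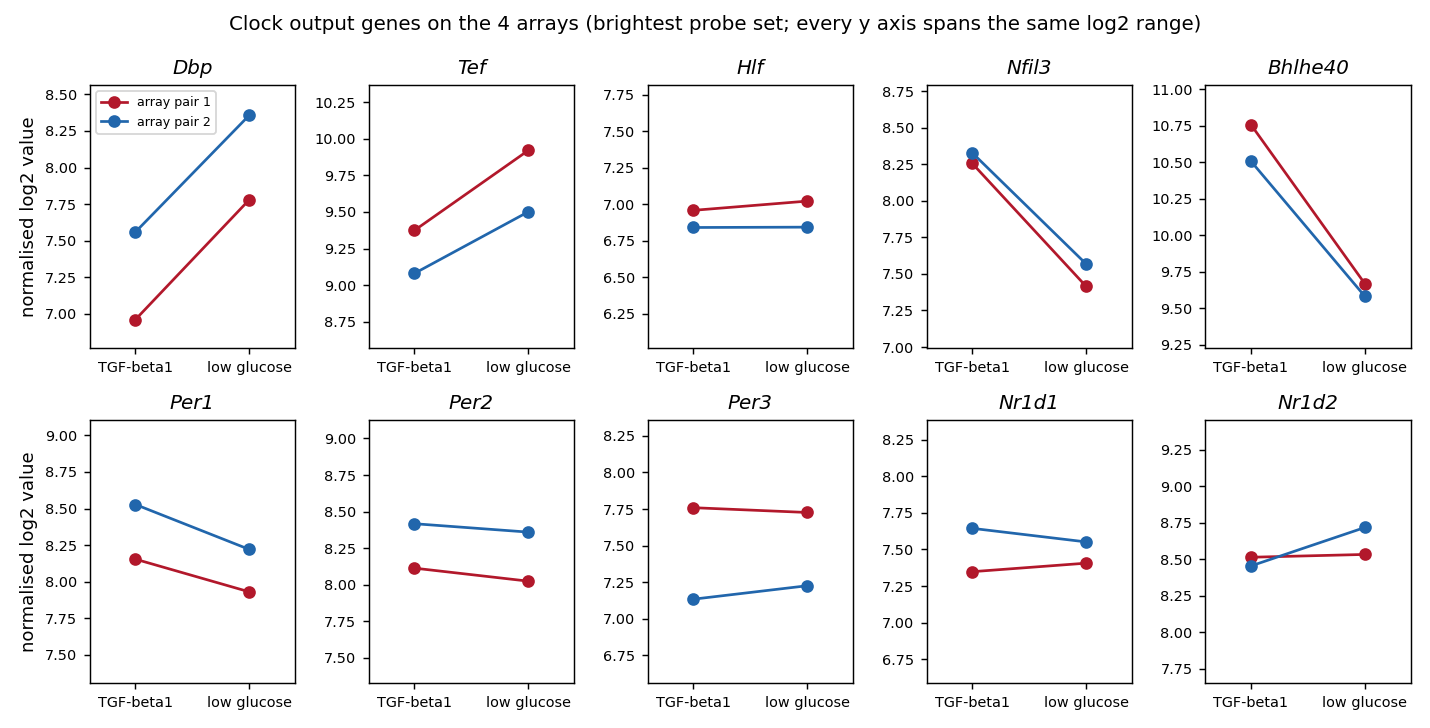
Normalised log2 values of the 10 genes (brightest probe set of each) on the TGF-beta1 arrays (left) and the low glucose arrays (right) of each panel, with each line joining the arrays of 1 array pair. Dbp and Tef lie lower and Nfil3 and Bhlhe40 higher in TGF-beta1 in both pairs, while the lines of Per2, Per3, Nr1d1 and Hlf are nearly flat and the pairs are offset from each other.

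Bhlhe40 showed the largest difference of the 10 genes. Its intensities were 1386 and 1731 in TGF-beta1 and 786 and 707 in low glucose, the brightest signals among these probe sets. Both TGF-beta1 arrays lay well above both low glucose arrays. The normalised values averaged 10.63 ± 0.18 in TGF-beta1 and 9.62 ± 0.06 in low glucose (SD, n = 2 each). The difference was 1.01 (1.09 and 0.92 within the pairs), a 2.01-fold higher level, and the 20th largest positive difference of the 13565 genes. It lay between 0.88 and 1.13 when 1 array was left out. Bhlhe41 (DEC2), the paralogue with the same E-box role, was at 0.06 ± 0.064 (0.08 and 0.04 within the pairs; SE of the blocked fit) and did not pass (adjusted p = 0.587 with limma). Its array pairs differed by 0.51, and the value was 0.32 without T1, 0.31 without L1, -0.21 without T2 and -0.18 without L2.

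The period genes encode the repressor proteins at the core of the loop, and of the 3, Per1 was the 1 with a difference above 0.25. Per1 had 316 and 247 in TGF-beta1 and 209 and 242 in low glucose. L2 lay between the TGF-beta1 arrays in normalised value, so the groups overlapped. Within each pair the TGF-beta1 array was the higher 1, by 0.22 and 0.31, for a difference of 0.27. The value depended on single arrays: it was 0.08 without T1, 0.12 without L1, 0.46 without T2 and 0.40 without L2. Leaving out 1 array unbalances the array pairs, and Per1 also differed between these.

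Per2 had 290 and 239 in TGF-beta1 and 224 and 274 in low glucose on its brightest probe set. The arrays of array pair 2 were the higher ones in both groups. The difference was 0.07 (0.09 and 0.06 within the pairs), and its other 2 probe sets were at -0.01 and 0.01. Per3 was covered by 6 probe sets, whose differences ran between -0.25 and 0.12. The brightest had 85.1 and 183 in TGF-beta1 and 177 and 90.7 in low glucose, with the same pair offset in both groups and a difference of -0.03. The lowest value, -0.25 (-0.17 and -0.33), came from a probe set with 87.7 and 85.1 in TGF-beta1 and 99.6 and 120.5 in low glucose. The probe sets of Per3 did not share a direction, so no direction is given for the gene.

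The REV-ERB receptors differed little. Nr1d1 had 142 and 130.3 in TGF-beta1 and 134.5 and 128 in low glucose. Its groups overlapped, and the difference was 0.02, with opposite signs within the pairs (-0.06 and 0.09). Nr1d2 had 298 and 324 in TGF-beta1 and 332 and 368 in low glucose. Both TGF-beta1 arrays lay below both low glucose arrays, but the difference of -0.14 came from array pair 2 (-0.26) far more than from array pair 1 (-0.02), and the second Nr1d2 probe set was at -0.03. In order of difference the genes ran Bhlhe40, Nfil3, Per1, Per2, Nr1d1, Per3, Hlf, Nr1d2, Tef and Dbp. From Per2 down to Nr1d2, neighbours in that order overlapped in their within-pair differences. The other neighbours did not.

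**Figure D2:**
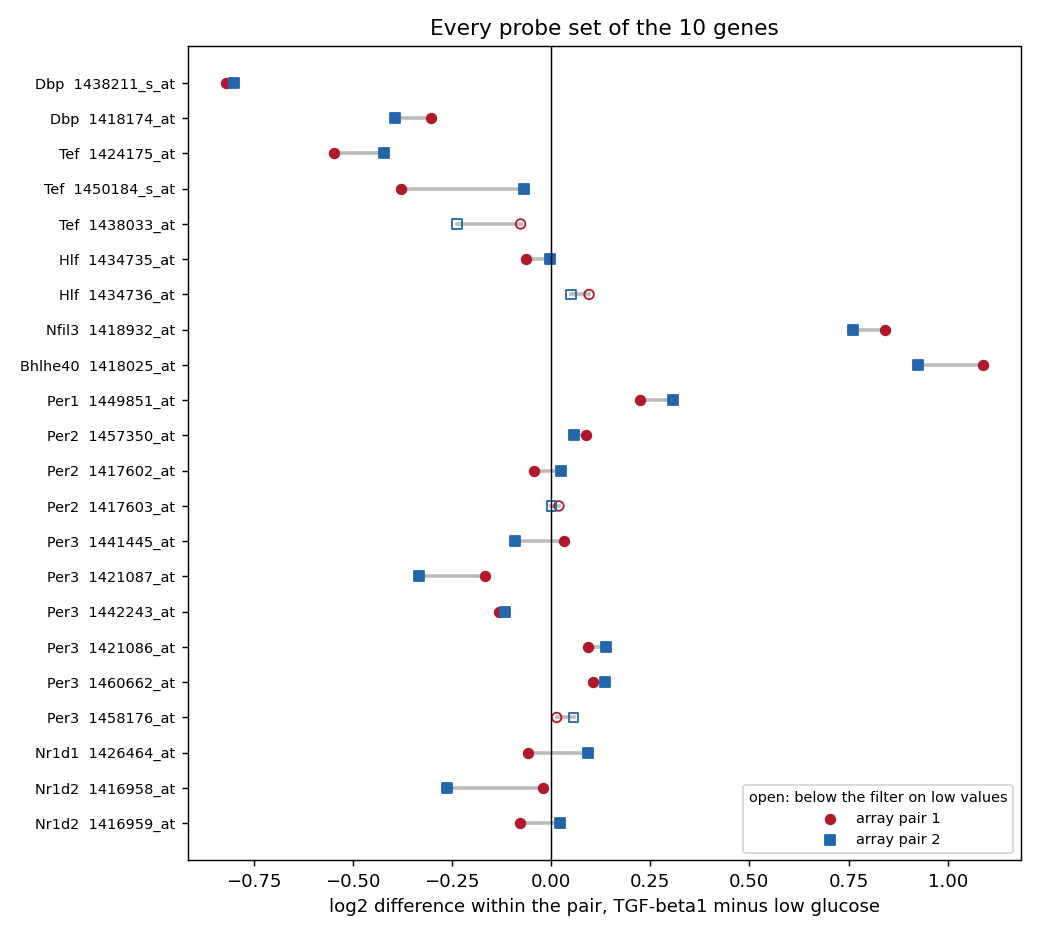
Log2 difference, TGF-beta1 minus low glucose, within array pair 1 (circles) and array pair 2 (squares) for each of the 22 probe sets, brightest first within a gene, with open symbols for the 4 below the filter. The probe sets of Dbp and Tef all lie left of 0, those of Nfil3, Bhlhe40 and Per1 right of it, and the 6 of Per3 on both sides.

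As a whole the 10 genes had no common direction, with a median difference of -0.01 against -0.00012 over all tested genes, and a median absolute difference of 0.20 against 0.09. An absolute difference of at least 0.25 was seen in 5 of the 10 (Bhlhe40, Nfil3, Per1, Tef and Dbp), against 10.3% of all tested genes. One of at least 0.5 was seen in 3 (Bhlhe40, Nfil3 and Dbp), against 1.81%. The groups did not overlap in normalised values for 5 (these 3, Tef and Nr1d2), against 20.9% of all tested genes. In the blocked fit 5 of the 10 were past an adjusted p of 0.05, against 18.5% of all tested genes. Of these 5, Bhlhe40, Nfil3 and Per1 were higher (against 7.89% of all) and Dbp and Tef lower (against 10.6%). Without the block limma called 0 genes of the 13565 (0%), and 271 (2%) had an unadjusted p under 0.05. As the genes were picked with this comparison in view, nothing is read from these counts.

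The levels of the same genes between the 2 array pairs are a comparison that the choice of genes did not use. For array pair 1 minus array pair 2 in the blocked fit, 6 of these 10 were past an adjusted p of 0.05, against 66.5% of all tested genes, so the share in the clock genes lay near the background. The arrays of the pairs did not overlap for 5, against 73% of all tested genes. Dbp was lower in array pair 1 by 0.59 ± 0.064 (adjusted p = 5.71e-19 with limma), with 7.37 in array pair 1 and 7.96 in array pair 2. The pairs nevertheless overlapped for Dbp, with 6.96 and 7.78 in array pair 1 and 7.56 and 8.36 in array pair 2. Per1 (-0.33 ± 0.067), Per2 (-0.32 ± 0.067) and Nr1d1 (-0.22 ± 0.065) were also lower in array pair 1, and Tef (0.36 ± 0.082) and the brightest Per3 probe set (0.56 ± 0.066) were higher. Values after ± are standard errors of that fit, with 2 arrays on each side. These errors and the p-values rest on an infinite prior, so they follow brightness and do not measure a gene's own spread. A finite prior was not tried for this comparison. Bhlhe40 (0.17 ± 0.081, adjusted p = 0.0579), Hlf (0.15 ± 0.077), Nfil3 (-0.11 ± 0.064) and Nr1d2 (-0.06 ± 0.072) did not pass. The scaling of the arrays bears on this comparison, as the median of all tested genes was -0.02 here, 0.10 with the authors' scaling and -0.10 with arrays centred on their medians. The directions of the 6 genes held in all 3, although Nr1d1 was at -0.02 with the authors' scaling, while Nfil3 changed sign (0.02). For 5 of the 10 genes (Hlf, Per1, Per2, Per3 and Nr1d1) the pairs differed by more than the groups did.

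The core partners of these genes were read from a list chosen beside them, with earlier results of these data known. Of 12 such genes 11 had a probe set and 10 passed the filter. By the blocked limma fit 4 rose (Ciart, Arntl, Rora and Cry1), 1 fell (Timeless) and 5 missed the threshold, where 18.5% of all tested genes were called. The median difference of the 10 was 0.05. None passed without the block, and 0 had an unadjusted p under 0.05 there. Blocked calls between the groups, above and below, rest on the infinite prior of that fit. With the finite prior of the unblocked model it called 0 of all 13565 genes. Ciart (CHRONO), a repressor of CLOCK and ARNTL, rose by 0.34 ± 0.066 (within-pair values 0.32 and 0.36; limma adjusted p = 6.83e-06). It had 278 and 265 in TGF-beta1 and 209.8 and 199.5 in low glucose, and its groups did not overlap. Timeless, whose main role in mammals is at the replication fork, fell by 0.24 ± 0.082 (adjusted p = 0.0232 with limma), with 603.5 and 721 in TGF-beta1 and 877 and 710.1 in low glucose. With T1 left out it was at -0.13 and with L1 left out at -0.12, and at -0.16 on its other probe set.

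Arntl, the partner of CLOCK, was at 0.22 ± 0.064 (within-pair values 0.27 and 0.17; limma adjusted p = 0.00529), with 238 and 168 in TGF-beta1 and 131 and 203 in low glucose. Cry1, a cryptochrome repressor, was at 0.21 ± 0.071 (within-pair values 0.30 and 0.13; limma adjusted p = 0.0178), with 419.8 and 272 in TGF-beta1 and 218 and 382 in low glucose. In both genes the groups overlapped, the array pairs differed more than the groups (-0.59 for Arntl and -0.69 for Cry1, array pair 1 minus array pair 2), and the direction turned when 1 array of a pair was left out. Arntl was at -0.05 without T1, -0.11 without L1, 0.51 without T2 and 0.53 without L2, and at 0.04 on its second probe set. Cry1 was at -0.09, -0.17, 0.52 and 0.59 in the same order, and its call ended with arrays centred on their medians (adjusted p = 0.0803 with limma). Rora, a receptor that activates ROR elements, was at 0.22 ± 0.069 (adjusted p = 0.0118 with limma). It was at 0.00 without T2, 0.03 without L2, 0.43 without T1 and 0.41 without L1, and its other 8 probe sets lay between -0.15 and 0.05. Clock (-0.13 ± 0.065), Cry2 (-0.10 ± 0.065), Rorb (0.05 ± 0.069) and Arntl2 (0.01 ± 0.070) did not pass, and Npas2, an alternative to CLOCK, lay below the filter. On a second probe set past the filter Clock was at -0.17 (within-pair values -0.10 and -0.23), and there the groups did not overlap. Its probe sets below the filter were at -0.19 and -0.13.

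**Figure D3:**
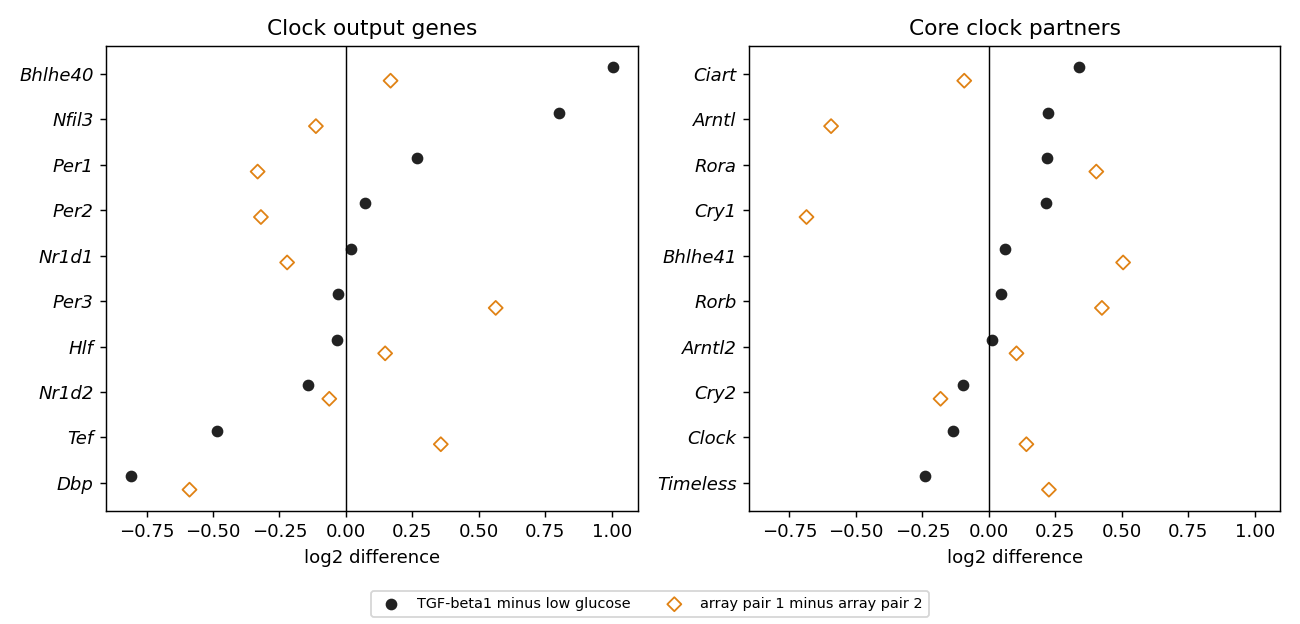
Log2 differences of the 10 clock output genes and of the 10 tested core clock partners, TGF-beta1 minus low glucose (filled circles) and array pair 1 minus array pair 2 (open diamonds). Bhlhe40, Nfil3 and Dbp lie farthest from 0 between the groups, while Arntl and Cry1 lie at -0.59 and -0.69 between the pairs.

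Other genes that the clock is known to drive were read from a list also chosen with earlier results of these data known. Of 10 listed output genes outside the clock 9 were tested. By the blocked limma fit 3 rose, 0 fell and 6 missed the threshold, where 18.5% of all tested genes were called and 7.89% called higher. Nothing is read from these counts. The median difference of the 9 was 0.03. Without the block 0 passed, and 1 had an unadjusted p under 0.05. Noct (nocturnin), a phosphatase with rhythmic expression, rose by 0.59 ± 0.082 (within-pair values 0.66 and 0.51; limma adjusted p = 5.1e-11), with 949.7 and 724 in TGF-beta1 and 442 and 647 in low glucose. It was at 0.31 without L1 and 0.39 without T1. Cdkn1a (p21), a cell cycle inhibitor that also answers to TGF-beta, rose by 0.74 ± 0.082 (0.79 and 0.69), and its second probe set was at 0.65. Lonrf3 rose by 0.40 ± 0.065, with 0.24 without T1, 0.16 without L1, 0.63 without L2 and 0.00 on its other probe set. Wee1, a mitotic kinase under E-box control, was at -0.01 ± 0.081, and Nampt at -0.19 ± 0.081 without passing. On a dimmer probe set past the filter Nampt was at -0.32 (-0.25 and -0.39), and there the groups did not overlap. It was at -0.10 on 1 below the filter. Among 8 tested modifiers of clock proteins 1 rose and 0 fell, and 0 passed without the block, also at an unadjusted p under 0.05. That 1 was Csnk1e, a kinase of the period proteins, at 0.22 ± 0.083 (0.22 in both pairs; adjusted p = 0.0425 with limma). It was at -0.01 without T2, -0.0027 without L2, 0.45 without T1 and 0.44 without L1, and its other probe sets were at 0.16 and 0.20. Its call ended with arrays centred on their medians (adjusted p = 0.0881 with limma).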

How the data were processed

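The authors deposited 1 linear intensity per probe set and array, and the sources used here do not say how probes were summarised or arrays scaled. From the deposited intensities, log2(intensity + 46.9) was taken, with the 25th percentile of the whole table as pseudocount, followed by quantile normalisation. Control probe sets (64) were left out, and 27022 probe sets were kept, those whose mean log2 value reached the 40th percentile. Platform annotation gave 1 symbol for 34945 probe sets, several for 932 and none here for 9160. Each gene was tested on its probe set of highest mean with limma 3.58.1 (R 4.3.3; lmFit, then eBayes with a trend, two-sided tests, Benjamini-Hochberg over all 13565 genes, threshold 0.05), once without a block and once with the array pair as a block. The array pairs were made from 18 spike-in probe sets, as the labels state no pairing. With the block, 1 residual degree of freedom remains and the prior is infinite, so that standard errors depend on brightness alone. The fits were also run on simulated data in which every gene had the same random spread. Such data could not test the infinite prior, which assumes a spread shared across genes. Precision is limited by the number of arrays. The members, gene lists, tests and alternatives were chosen with earlier results of these data known. Named genes are all 10 members, every core clock partner with a value and up to 4 called genes of each other list with the largest difference. Genes named only as not passing and cell type markers were named after their values were seen. Figures were drawn with matplotlib 3.10.9.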

Additional observations from a re-analysis of the deposited data

How the results depend on the processing

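The alternatives were pseudocounts of 16 and 100, median centring, the authors' scaling, no filter on low values, a filter at the 60th percentile, every kept probe set in place of the brightest, the mean over a gene's probe sets, the array pair as a block and each array left out. The count of clock output genes differing by at least 0.25 was 5, and 4 to 6 under the 10 alternatives run for it. It was not run for the other filters and the use of every kept probe set. Bhlhe40, Nfil3, Dbp and Tef stayed in the count throughout, but its other genes changed. Per1 left the count without T1 (0.08), without L1 (0.12), with the pseudocount of 100 (0.23) and with median centring (0.24). It also left where a difference of at least 0.25 was required within both array pairs (0.22 in array pair 1). Per3 entered the count in both directions, at 0.28 without T1, -0.35 without T2 and -0.28 without L2. The blocked fit called 2503 genes, 4078 of 23221 with all kept probe sets, where more features were tested, and 0 when it borrowed the unblocked prior of 2.79 degrees of freedom, where the smallest adjusted p was 0.0851 with limma. The fit without the block called 0 genes and 2503 with it; with 1 array left out it called between 0 and 11 genes (11 when L1 was absent and 11 when L2 was). Between the array pairs, 9015 genes were called and 15265 with all kept probe sets. Of the 9015, 4313 were higher in array pair 1, against 6100 of 9449 with the authors' scaling and 3549 of 9613 with median centring. Among called genes, directions turned for Arntl (-0.11 to 0.53 over the 4 arrays left out), Cry1 (-0.17 to 0.59) and Csnk1e (-0.0074 to 0.45), since an array left out unbalances the pairs. Signs also turned, over the same arrays left out, for Per3 (-0.35 to 0.28), Per2 (-0.10 to 0.23), Nr1d1 (-0.13 to 0.17), Hlf (-0.13 to 0.05), Bhlhe41 (-0.21 to 0.32), Rorb (-0.18 to 0.27), Arntl2 (-0.07 to 0.08) and Cry2 (-0.19 to 0.0011). Bhlhe40, Nfil3, Per1, Tef and Dbp, the 5 of the first count, did not change sign. The depth of signal over background is not known here.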

Other observations

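Genes listed as inducible by cAMP and its factor CREB, as Per1 is, were mostly higher on the TGF-beta1 arrays. The list also held Creb1, the gene of CREB itself, which is among those that rose (0.19 ± 0.064). The other Creb1 probe sets lay between -0.14 and 0.13. Of 11 tested, 8 rose, 1 fell and 2 missed the threshold in the blocked limma fit, where 18.5% of all tested genes were called. Their median difference was 0.28. Without the block 0 passed, and 3 had an unadjusted p under 0.05. The list was chosen with earlier results of these data known, so nothing is read from these counts. A part of cAMP in the Per1 values was not tested. Dusp1, a MAP kinase phosphatase, rose by 1.06 ± 0.076 (1.15 and 0.97 within the pairs). Gem, a small GTPase, rose by 0.81 ± 0.066 (0.82 and 0.81), with intensities of 219.5 and 165 in TGF-beta1 and 70.4 and 98.0 in low glucose. Its difference was 0.58 without T1, 0.58 without L1, 1.07 without T2 and 1.06 without L2. Fos, a subunit of AP-1, rose by 0.73 ± 0.081 (0.71 and 0.76) and was at 0.49 without T1. Fosb rose by 0.44 ± 0.071 and was at 0.20 without T2, 0.27 without L2 and 0.68 without T1. The 1 gene that fell was Pde4b, a cAMP phosphodiesterase, at -0.18 ± 0.065 (-0.04 and -0.31; limma adjusted p = 0.0423).

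Of 9 genes known to be induced by glucocorticoids, hormones that also raise Per1, 6 rose, 0 fell and 3 missed the threshold in the same fit, against 18.5% of all tested genes called and 7.89% called higher. Their median difference was 0.54. Dusp1 is on both lists. Sgk1, a kinase that regulates ion transport, rose by 0.97 ± 0.066 (1.10 and 0.84), with 373 and 302.1 in TGF-beta1 and 124 and 179.6 in low glucose. Ddit4, an inhibitor of mTORC1, rose by 0.76 ± 0.081 (0.93 and 0.59) and Mt2, a metallothionein, by 0.60 ± 0.075 (0.54 and 0.66). The glucocorticoid targets Fkbp5 (-0.07 ± 0.079) and Tsc22d3 (0.00 ± 0.082) did not pass. In limma's unblocked fit 0 of the 9 passed, with 4 at an unadjusted p under 0.05. As this list was also chosen with earlier results of these data known, nothing is read from its counts. A part of glucocorticoids in the Per1 values was not tested.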
